A study of Malus domestica with 6 samples.

Results

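The genes described here were expressed in the pulp of Jonagold apples and close to undetected in that of Granny Smith apples. A gene belonged to them when it reached at least 1 FPKM (a read count normalized for the length of the transcript and the size of the library) in each of the 3 Jonagold libraries and its mean over the 3 Granny Smith libraries was below 0.05 FPKM. Genes of the study's own tables of aroma pathway genes were left out. Of the 46558 genes listed, 332 met the rule, and they are called Jonagold-only genes in what follows. The name refers to these libraries alone. The values that chose the genes come from the same comparison of the cultivars that their levels describe. Outcomes of a test of that difference are given for them as a description only.

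The samples were the pulp of unbagged, full ripe fruits of the cultivars Granny Smith, with green skin, and Jonagold, with red stripes. The study reports less internal ethylene and firmer fruit in Granny Smith. A difference between the cultivars and one in ripeness at harvest cannot be told apart here. Each cultivar had 3 libraries, each made from a pool of several fruits, so the spread between libraries is the spread between pools. No treatment other than leaving the fruits unbagged was applied, and both cultivars shared it. The reads recovered over all genes numbered 17730347 to 17884310 per Granny Smith library and 14925751 to 17427102 per Jonagold library. The study sequenced paired ends and reports more mapped reads per library than this. The recovered units may thus be read pairs assigned to genes, and they are called reads here. The FPKM values summed to 554856 to 599617 in Granny Smith and to 755644 to 800812 in Jonagold, so 1 FPKM stood for fewer reads in Jonagold. The deposited table gives identifiers without gene names, and the study's lists name genes of aroma pathways, so markers of pulp were not checked.

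As background, apple is an outcrossing tree that is propagated as clones, and its cultivars differ in sequence as well as in which copies of a gene they carry. Jonagold is a triploid seedling of Golden Delicious and Jonathan, and the GDDH13 reference genome was made from a doubled haploid of Golden Delicious, whereas Granny Smith is not a descendant of that cultivar. The study nevertheless reports that a larger share of the reads mapped to the reference in every Granny Smith library than in any Jonagold library. What these shares mean for single genes was not tested. A gene that is missing in Granny Smith, a gene whose sequence there is too different for its reads to map, and a gene that is present and silent cannot be told apart from expression values. In bulk pulp, fewer cells of a type and less RNA per cell cannot be told apart either. The identifiers carry the chromosome in the digits after MD and follow the order of the genes along it, with numbers that differ by 100 between neighbours. That difference is called 1 step here. No gene name is given for the Jonagold-only genes, because neither the table nor the study's lists name them.

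The Jonagold-only genes made up 1.75% of the 19019 genes with at least 1 FPKM in each Jonagold library. The number fell steadily with the level allowed in Granny Smith. Of the 19019 genes, 1428 had a Granny Smith mean below 1 FPKM, 885 below 0.5, 421 below 0.1 and 333 below 0.05, and 187 were at 0 in all 3 libraries. The rule with the cultivars exchanged found 138 Granny Smith-only genes, 0.729% of the 18928 genes with at least 1 FPKM in each Granny Smith library. Both numbers depended on the scale of the FPKM values. With the FPKM totals of the 6 libraries made equal, 275 genes were Jonagold-only and 170 Granny Smith-only, so Jonagold had more under either scale and the difference was smaller.

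The pathway tables removed 1 gene. MD05G1308600, which the study names MdOMT-2 and which belongs to the O-methyltransferases, enzymes that add methyl groups to phenolic compounds, had 23.2, 14.3 and 12.7 FPKM in Jonagold replicates 1, 2 and 3. It was at 0 in all 3 Granny Smith libraries. None of the Jonagold-only genes, 0 of 332, was in the table of primers used for qRT-PCR.

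Most Jonagold-only genes were weakly expressed. Their mean FPKM over the Jonagold libraries ran from 1.06 to 93.0 with a median of 2.99 (quartiles 1.999 and 5.183), against a median of 9.02 for the other genes with at least 1 FPKM in each Jonagold library. A mean of at least 10 FPKM was reached by 37 of them, or 11.1%, against 46.9% of the other genes. Only 12 reached 20 FPKM and only 2 reached 50. The 10 highest held 24.7% of the summed level of all 332. In FPKM, the Jonagold-only genes together made up 0.283%, 0.202% and 0.216% of the sums of Jonagold replicates 1, 2 and 3. A low level was not particular to them. The Granny Smith-only genes had a median mean of 2.69 FPKM over the Granny Smith libraries, and the highest reached 38.3.

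**Figure D1:**
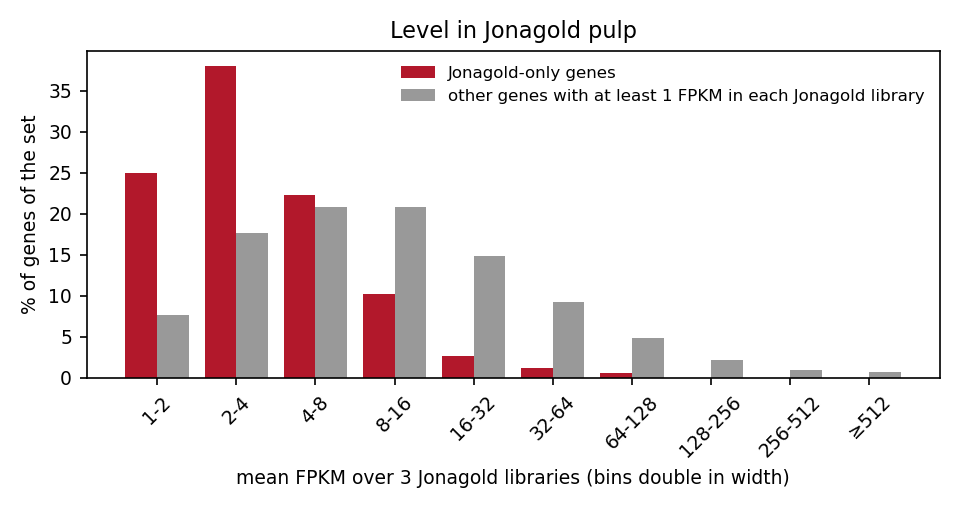
Distribution of the Jonagold-only genes (red) and of the other genes with at least 1 FPKM in each Jonagold library (grey) over bins of the mean FPKM in Jonagold (x axis), as a percentage of each set (y axis). The bin from 2 to 4 FPKM held more Jonagold-only genes than any other, 38% of them, against 17.7% of the other genes, and no Jonagold-only gene lay above 128 FPKM.

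The low level in Granny Smith was a matter of a handful of reads. The deposited FPKM values proved to be whole reads scaled by 1 value per library and divided by the length of the gene, so that reads could be recovered. Over the 332 genes, Granny Smith replicates 1, 2 and 3 held 67, 184 and 95 reads in all, whereas Jonagold replicates 1, 2 and 3 held 34720, 29824 and 26393. There were no reads in any Granny Smith library for 186 genes (56%). A further 103 genes had reads in 1 Granny Smith library, 38 in 2 and 5 in all 3. The most reads of a Jonagold-only gene in a Granny Smith library were 7, and 315 of the genes had 3 or fewer in every one of them. Granny Smith replicate 2 held more of these reads than the other Granny Smith libraries together.

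How far such values reach depends on depth. At the median length of the Jonagold-only genes, a mean of 0.05 FPKM in Granny Smith corresponds to about 3 reads over the 3 libraries, and 1 FPKM in Jonagold to about 14 reads in a library. A count of 0 allows up to 3 reads in a library, and this floor covers counting error only. For the 315 genes at or below that floor, the ratio of the Jonagold to the Granny Smith mean is given as an approximate lower bound, computed against 3 reads per Granny Smith library. It takes the Jonagold mean without its error. For genes with a read in a Granny Smith library, counting error allows more than 3 there. The lower bound had a median of 20.2 and ranged from 1.91 to 1032, and it was above 10-fold for 238 genes. The bound is cautious for genes with no read in any Granny Smith library, since it sets 3 reads in each of them. Absence was not shown for any gene.

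Values just inside and just outside the limits of the rule were close. The Jonagold-only genes nearest to the minimum in Jonagold were MD05G1136200, MD06G1179300 and MD02G1162100, whose lowest Jonagold values were 1.006, 1.008 and 1.015 FPKM. Just outside stood MD08G1018800, MD11G1136000 and MD15G1288900 with 0.998, 0.996 and 0.991 FPKM. At the limit in Granny Smith, MD14G1002600, MD08G1083700 and MD08G1212400 were inside with means of 0.04998, 0.04994 and 0.0499 FPKM. Just outside were MD09G1094400, MD15G1170000 and MD09G1080200 with 0.0507, 0.0508 and 0.0508 FPKM. MD15G1170000 stayed outside with 1 read in Granny Smith replicate 2 and 1 in replicate 3, although its Jonagold libraries had 49.2, 16.2 and 36.6 FPKM.

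In the limma comparison of the cultivars over all 20993 genes whose mean over the 6 libraries reached 1 FPKM, 12.0% of the genes tested were called higher and 9.34% lower in Jonagold, at a Benjamini-Hochberg adjusted p below 0.05 and a log2 fold change of at least 1 in size. Of the Jonagold-only genes, 251 had a high enough mean to be tested and 81 had not. All 251 were called higher, which the rule made nearly certain and from which nothing is read. Their median log2 fold change was 2.22 on log2(FPKM + 1), where the added 1 makes the change of weak genes look smaller.

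The gene with the highest mean was decided by 1 library. MD03G1228400 on chromosome 3 had 221, 34.0 and 24.1 FPKM in Jonagold replicates 1, 2 and 3, from 1379, 238 and 149 reads, and 0 reads in every Granny Smith library. Its mean was 93.0 ± 110.9 FPKM (SD, n = 3), and 29.0 without Jonagold replicate 1. Jonagold replicate 1 stood 9.17-fold above replicate 3, while all 3 were far above the Granny Smith libraries.

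The second gene was even between libraries. MD01G1211500 on chromosome 1 had 60.0, 81.3 and 75.5 FPKM in Jonagold replicates 1, 2 and 3, and its 1, 1 and 2 reads in Granny Smith replicates 1, 2 and 3 gave at most 0.0455 FPKM. With 1719 to 2617 reads in a Jonagold library, its approximate lower bound was 1032-fold, the largest of the set. MD12G1156000 on chromosome 12 followed with 33.7, 52.1 and 51.3 FPKM and a single read in Granny Smith. MD02G1150900 on chromosome 2 had 48.5, 36.0 and 42.5 FPKM and no read in Granny Smith. In these genes the Jonagold libraries lay within 2-fold of each other and the cultivars did not overlap, as the rule requires.

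Among the rest of the 10 highest, MD03G1111600 on chromosome 3 had 53.6, 29.1 and 33.1 FPKM in Jonagold replicates 1, 2 and 3. MD06G1094600 on chromosome 6 was the most even of the 10, with 34.1, 37.8 and 35.7 FPKM (mean 35.8 ± 1.84, SD, n = 3). MD05G1240800 on chromosome 5 was lowest in Jonagold replicate 1, with 18.7, 32.5 and 38.3 FPKM. The first of these had 2 reads in total over the Granny Smith libraries and the others had none. MD02G1053200 on chromosome 2 had 38.0, 19.9 and 29.0 FPKM and no read in Granny Smith. It closes a stretch of Jonagold-only genes described further on.

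A pair of the 10 shared the pattern of the first gene. MD05G1086900 on chromosome 5 had 58.2, 20.5 and 15.5 FPKM, and MD09G1013100 on chromosome 9 had 59.0, 13.9 and 11.4 FPKM. Both were highest in Jonagold replicate 1, and without it their means fell from 31.4 to 18.0 and from 28.1 to 12.7 FPKM. Each had a single read in Granny Smith.

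**Figure D2:**
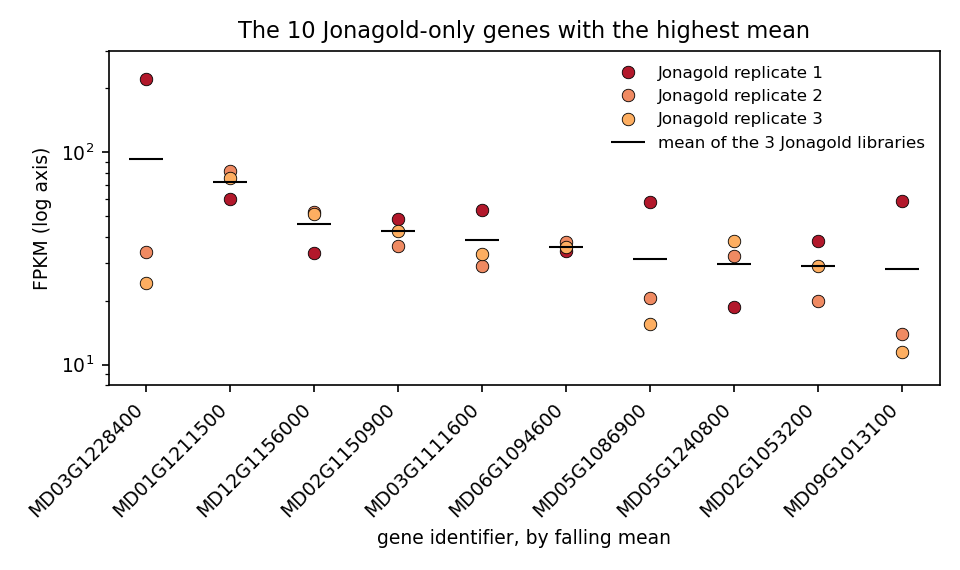
FPKM (log axis) of the 10 Jonagold-only genes with the highest mean, each point a Jonagold library and each bar the mean of the 3, with genes ordered by mean. Jonagold replicate 1 stands far above the others in MD03G1228400 (221 FPKM), MD05G1086900 (58.2) and MD09G1013100 (59.0), whereas MD06G1094600 lies between 34.1 and 37.8.

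Such unevenness was a feature of a minority. The coefficient of variation (CV, the SD over the mean of the Jonagold libraries) had a median of 0.246 in the Jonagold-only genes, 0.161 in the other genes below 10 FPKM and 0.133 in all other genes expressed in Jonagold. The Jonagold-only genes also had fewer reads, and counting alone would give a median CV of 0.153, against 0.103 for the other genes below 10 FPKM. The CV exceeded that of counting in 71.7% of the Jonagold-only genes and in 73.2% of these other genes. A CV above 0.5 was seen in 36 Jonagold-only genes (10.8%), against 2.65% of the other genes below 10 FPKM. Of the 36, 23 were highest in Jonagold replicate 1, 9 in replicate 2 and 4 in replicate 3. Replicate 1 was also the highest in 55% of the other genes below 10 FPKM with such a CV. Its part in the spread of the Jonagold-only genes was not tested.

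Besides MD03G1228400, the genes with the highest CV among those of at least 5 FPKM were MD15G1208300 and MD07G1254500. MD15G1208300 on chromosome 15 had 27.7, 3.42 and 2.54 FPKM in Jonagold replicates 1, 2 and 3, from 670, 93 and 61 reads. MD07G1254500 on chromosome 7 had 24.8, 6.22 and 3.07 FPKM, from 867, 244 and 106 reads. Neither had a read in Granny Smith. Both were highest in Jonagold replicate 1 and lowest in replicate 3, with means of 2.98 and 4.65 FPKM without Jonagold replicate 1. At the other end, MD02G1199900 on chromosome 2 had 5.25, 5.33 and 5.30 FPKM, MD10G1209400 on chromosome 10 had 7.27, 6.86 and 7.19, and MD17G1017000 on chromosome 17 had 16.98, 17.04 and 15.93. These 3 had 0 to 2 reads in any Granny Smith library. Over all 332 genes, 92 differed more than 2-fold and 29 more than 3-fold between Jonagold libraries.

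The Jonagold-only genes were short. The length that the FPKM values imply had a median of 983 bases (quartiles 555.8 and 1556), against 1607 bases (1067 and 2296) for the other genes expressed in Jonagold. At most 600 bases were found for 89 of them, 26.8%, against 6.76% of the other genes. Among genes below 10 FPKM the medians were 952 and 1652 bases. The Granny Smith-only genes had a median of 947.5 bases. Short genes collect fewer reads at a given FPKM, so their values are less precise, and the part of length in meeting the rule was not tested.

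The Jonagold-only genes lay on all 17 chromosomes, and 10 were on unplaced sequence. Chromosome 2 held the most, 39, which was 3.24% of its genes expressed in Jonagold. Chromosome 5 followed with 32 genes (2.42%), chromosome 10 with 29 (2.36%), chromosome 11 with 25 (2.28%) and chromosome 17 with 22 (2.16%). The lowest shares were those of chromosome 15 with 1.07%, chromosome 16 with 1.11% and chromosome 3 with 1.13%. Chromosome 15 has the most expressed genes of all, 1779, and yet only 19 Jonagold-only genes. Chromosome 2 therefore held 11.7% of the Jonagold-only genes and 6.34% of the expressed genes. Of the Granny Smith-only genes the largest shares were on chromosomes 9 (1.45%) and 5 (1.26%), with 0.603% on chromosome 2, so chromosome 5 was high for both sets. Chromosome 2 held the most Jonagold-only genes under all 11 alternatives to the rule, whereas the order of the others changed with the limits. With 0 reads required in Granny Smith, chromosome 5 kept 14 genes and chromosome 17 kept 7. The median level per chromosome varied little, from 2.19 FPKM on chromosome 13 to 3.97 on chromosome 12. These shares are descriptions, since neighbouring genes are not independent and no test over chromosomes was made.

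**Figure D3:**
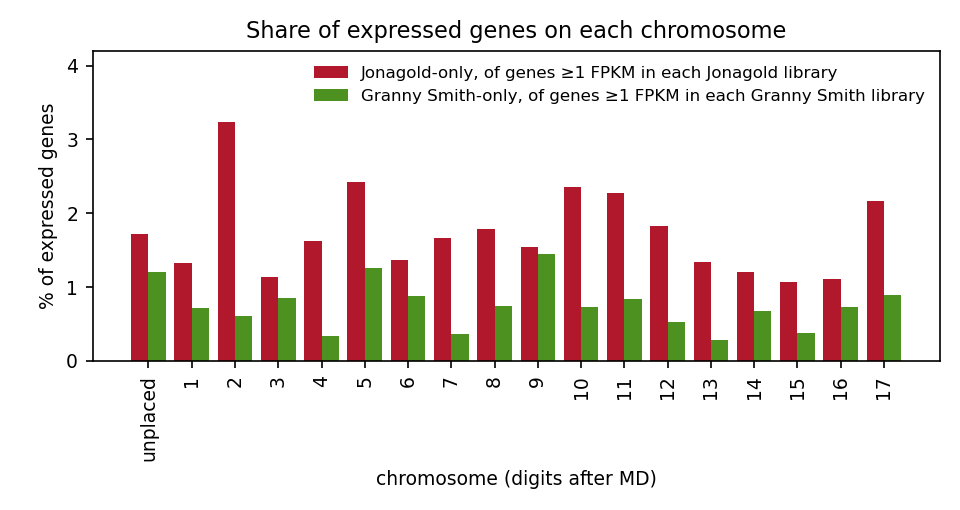
Jonagold-only genes (red) as a percentage of the genes with at least 1 FPKM in each Jonagold library and Granny Smith-only genes (green) as a percentage of those with at least 1 FPKM in each Granny Smith library (y axis), for each chromosome and for unplaced genes (x axis). Chromosome 2 has the highest red bar, 3.24%, and chromosome 15 the lowest, 1.07%.

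Many Jonagold-only genes stood next to each other. Runs of directly neighbouring identifiers numbered 35 and held 71 of the 332 genes, or 21.4%. Of the other genes expressed in Jonagold, 223 (1.19%) had a Jonagold-only gene as direct neighbour. Among the Granny Smith-only genes, 14 of 138 (10.1%) had a neighbour of their own kind, and 2 Jonagold-only genes had a Granny Smith-only neighbour. The Granny Smith-only set is the smaller, 0.729% of its expressed genes against 1.75%, which makes such neighbours rarer. The shares of 21.4% and 10.1% are therefore not compared. Runs were short, with 34 pairs and 1 run of 3 genes. When genes up to 5 steps apart were joined, 43 groups held 95 genes (28.6%), and the largest had 5. Neighbouring gene models can overlap, and the sharing of reads between them was not tested.

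The run of 3 was on chromosome 10. MD10G1212900 had 1.06, 3.46 and 2.28 FPKM in Jonagold replicates 1, 2 and 3, MD10G1213000 had 3.39, 3.58 and 5.13, and MD10G1213100 had 2.78, 1.76 and 2.14. They differed in which library was highest, and had at most 2 reads in a Granny Smith library against 22 to 225 in a Jonagold library. The pair with the highest summed level was MD16G1137400 and MD16G1137500 on chromosome 16, with 14.9, 13.5 and 7.93 FPKM and 9.85, 7.45 and 9.64 FPKM. Neither gene of this pair had a read in Granny Smith. MD17G1023800 and MD17G1023900 on chromosome 17 were unequal, with 2.04, 4.72 and 2.47 FPKM and 17.2, 12.6 and 13.6 FPKM. The first of them is 178 bases long and its values rest on 5 to 13 reads. MD17G1024100 and MD17G1024300, of 2.30 and 1.99 FPKM on average, lie within 4 steps of the second of them, so that 4 of 6 successive genes were Jonagold-only.

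The genes around the Jonagold-only genes were not chosen by the rule, and they were compared between the cultivars as part of the fit over all genes. Of the 229 non-member genes tested at 1 step from a Jonagold-only gene, 77 (33.6%) were called higher and 14 (6.11%) lower in Jonagold. Of all 20742 non-member genes tested, 10.9% were called higher and 9.45% lower. The median log2 fold change was 0.36 at 1 step, against -0.0063 over all non-member genes tested. From 2 to 5 steps away, 15.6% of 771 genes were called higher and 8.95% lower, and from 6 to 10 steps 13.5% and 9.74% of 986. The share called higher was thus smaller from 2 steps on. Step by step, with a gene counted at each of its distances, this share was uneven. It was 21.7% at 2 steps before and 23.6% at 2 steps after a Jonagold-only gene, and 11.4% at 3 steps after. At 5 steps before it was 22.3% and at 7 steps after 22.6%. At 10 steps it was 13.8% before and 11.8% after. Within 5 steps, 197 of 1000 genes (19.7%) were called higher and 83 (8.3%) lower. With equal FPKM totals these were 14.8% and 15.9%, against 8.43% and 16.3% of all genes tested, Jonagold-only ones included. Calls higher then fell from 70.4% to 48.2% of the calls near Jonagold-only genes.

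The same order was seen in genes with reads in 1 cultivar alone, whether or not they could be tested. At 1 step from a Jonagold-only gene, 42 of 512 non-member genes (8.2%) had reads in Jonagold and none in Granny Smith, and 4 (0.781%) the reverse. Over all non-member genes the shares were 1.27% and 1.64%. Of the 322 Jonagold-only genes on chromosomes, 69 had another one at 1 step. A non-member called higher in Jonagold stood at 1 step from 74 of them (23%), against 10.7% of the 18043 other placed genes expressed in Jonagold. Of the rest of the 322, 11 had at 1 step a non-member called lower, 107 had tested ones that were not called, and 130 had no tested non-member. Among the 18043 other genes, sorted the same way, these classes held 1407 (7.8%), 10141 (56.2%) and 4560 (25.3%). Each comparison here uses the same 6 libraries. In the counts of non-member genes, each gene entered once however many Jonagold-only genes it stood beside. In the counts of the 322 Jonagold-only genes, a non-member counted for each one it stood beside. In the plot by steps, a gene near several of them appears at each of its distances.

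**Figure D4:**
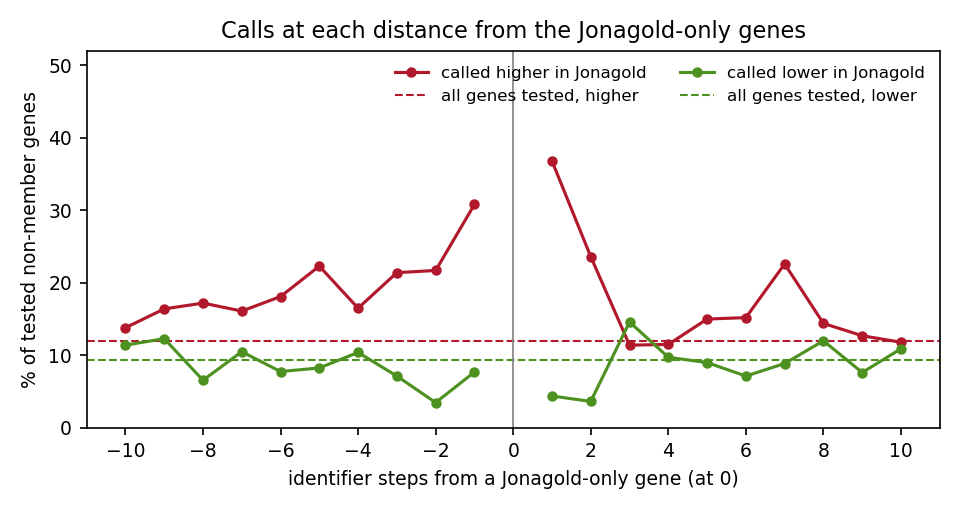
Percentage of the tested genes that were called higher (red) or lower (green) in Jonagold by limma (y axis), by identifier steps from a Jonagold-only gene (x axis), without the Jonagold-only genes themselves. Dashed lines give the shares over all genes tested, Jonagold-only genes included. The red line reaches 30.8% and 36.8% at 1 step on either side, against a dashed line at 12.0%, while the green line lies at 7.69% and 4.39%.

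Among the called genes within 5 steps, MD01G1051900 on chromosome 1 had the highest log2 fold change. The study names it MdOMT-1, another O-methyltransferase, and it stands 1 step before the Jonagold-only gene MD01G1052000. It had 36.1, 23.1 and 35.9 FPKM in Granny Smith replicates 1, 2 and 3 and 3726, 2886 and 3317 FPKM in Jonagold, and its log2 fold change by limma was 6.68 with a standard error of 0.20 (adjusted p = 2.7e-07). MD01G1052000 itself had only 2.71, 3.62 and 3.99 FPKM in Jonagold and 1 read in Granny Smith. In FPKM the neighbours lay far apart in level and were both higher in Jonagold.

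MD17G1226700, 3 steps from a Jonagold-only gene on chromosome 17, rose from 2.31 ± 1.57 to 159.9 ± 10.5 FPKM (log2 fold change 5.72, adjusted p = 4.5e-06 by limma). MD02G1050800 on chromosome 2 rose from 3.32 ± 0.52 to 196.7 ± 21.2 FPKM (5.52, adjusted p = 1.3e-07). The largest falls near Jonagold-only genes were those of MD14G1103900 on chromosome 14, from 40.3 ± 15.2 to 0.250 ± 0.133 FPKM (-4.99, adjusted p = 2.5e-06), and MD05G1118700 on chromosome 5, from 39.8 ± 4.78 to 2.02 ± 0.33 FPKM (-3.75, adjusted p = 7e-07). MD05G1118700 lies directly beside a Jonagold-only gene, so the direction was not shared by all neighbours. The Granny Smith libraries gave 219.6, 193.6 and 118.2 FPKM for MD05G1042900 and the Jonagold libraries 61.4, 5.57 and 7.31 (log2 fold change -3.52, adjusted p = 0.005), with Jonagold replicate 1 apart from the others. All 6 genes kept their call under all 13 settings of the fit.

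The study's tables list 94 genes of the pathways that make aroma volatiles, chosen there because they differed between the cultivars, so their changes are no independent evidence of a direction. Of these, 11 (11.7%) lay within 5 steps of 10 Jonagold-only genes, against 5.21% of all 46226 non-member genes. Genes that differ between the cultivars are the closer base. Of the 2264 non-member genes called higher in Jonagold, 197 lay within 5 steps, and of the 1960 called lower, 83. Some of the 11 also stood near the same Jonagold-only gene, so they are not separate cases. They included 4 of the 12 lipoxygenases listed, enzymes that oxygenate polyunsaturated fatty acids on the way to C6 aldehydes and esters. MD07G1004500 and MD07G1004600 (MdLOX-1 and MdLOX-2) stood 2 to 4 steps from the Jonagold-only pair MD07G1004200 and MD07G1004300. MdLOX-1 rose from 244.6 ± 75.8 to 1700 ± 113.1 FPKM (log2 fold change 2.84, adjusted p = 2.8e-05 by limma) and MdLOX-2 from 132.0 ± 45.7 to 948.9 ± 166.3 (2.87, adjusted p = 3.6e-05). Of the Jonagold-only pair, MD07G1004300 had 4.88, 3.38 and 3.63 FPKM and MD07G1004200 had 1.60, 1.36 and 1.47, so the pair was expressed far below the named genes.

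MD09G1069500 (MdLOX-10) on chromosome 9 rose from 31.7 ± 11.1 to 1185 ± 66.7 FPKM (5.25, adjusted p = 2.2e-06), with the Jonagold-only gene MD09G1069700 (9.30, 12.8 and 8.49 FPKM in Jonagold) 2 steps away. MD12G1218200 (MdLOX-12) averaged 0.313 ± 0.048 FPKM in Granny Smith against 0.996 ± 0.109 in Jonagold and was too low for the test, whereas MD12G1218000, the Jonagold-only gene 2 steps before it, had 10.3, 3.95 and 3.93 FPKM. In this place the unnamed gene was the more strongly expressed.

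Genes of fatty acid and amino acid synthesis stood near other Jonagold-only genes. MD13G1233600 (MdACC-3), for acetyl-CoA carboxylase, which makes malonyl-CoA for fatty acid synthesis, rose from 23.0 ± 1.55 to 135.8 ± 34.2 FPKM (2.48, adjusted p = 1.3e-05) directly before MD13G1233700 and MD13G1233800, which rest on 3 to 13 reads in a Jonagold library. MD06G1028700 (MdALS), for acetolactate synthase, the first enzyme of branched-chain amino acid synthesis, rose from 15.7 ± 1.89 to 39.5 ± 0.27 FPKM (1.28, adjusted p = 4.9e-05), 4 steps before MD06G1029100 with 8.51, 9.04 and 7.71 FPKM. MD14G1002100 (MdKAR-1), for a 3-oxoacyl reductase of fatty acid synthesis, rose from 20.6 ± 4.12 to 61.3 ± 15.6 FPKM (1.51, adjusted p = 0.00041). The 3 genes MdPD-1, MdPD-2 and MdPD-3 around the Jonagold-only gene MD12G1172900, for pyruvate decarboxylase, which makes acetaldehyde, fell, with log2 fold changes of -2.72, -1.83 and -1.83 (adjusted p = 1.2e-06, 7.7e-06 and 0.00011 by limma). Their means lay between 322.4 and 555.0 FPKM in Granny Smith and between 47.9 and 153.1 FPKM in Jonagold. MD12G1172900 itself had 1.48, 1.097 and 1.44 FPKM in Jonagold and no read in Granny Smith. Of the 11 pathway genes, 7 were called higher and 3 lower, and 1 was not tested. The study reports higher levels in Jonagold for the majority of its fatty acid and isoleucine genes. The split among the 11 is therefore not read as a result of their position.

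A stretch of chromosome 2, from MD02G1050900 to MD02G1053200, was chosen after its values were seen. Of its 24 genes, 8 were Jonagold-only and 2 had no read in any library. The first 5 Jonagold-only genes lay within 6 steps, and their means were 2.11 (MD02G1050900), 2.29 (MD02G1051100), 2.59 (MD02G1051200), 2.84 (MD02G1051400) and 2.26 FPKM (MD02G1051500). Only MD02G1051500 had a value above 0 in Granny Smith, 0.111 FPKM in replicate 1. The genes between them were also near 0 in Granny Smith but below 1 FPKM in a Jonagold library, with means of 0.657 (MD02G1051000) and 1.61 FPKM (MD02G1051300).

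Further along the stretch, MD02G1052600 had 4.09, 4.77 and 3.87 FPKM in Jonagold and MD02G1052700 had 5.32, 4.74 and 4.93, both with no read in Granny Smith. MD02G1053200, at 28.97 FPKM, was the most strongly expressed of the stretch. Of the 4 non-member genes tested within it, MD02G1052800 (log2 fold change 1.86, adjusted p = 0.00021 by limma) and MD02G1052900 (2.24, adjusted p = 2.6e-05) were called higher. MD02G1053000 and MD02G1053100 had log2 fold changes of 0.74 and 0.77 (adjusted p = 0.0051 and 0.009), under the size required for a call. These last lie between called and Jonagold-only genes and had 7.55 and 5.19 FPKM on average in Granny Smith, so the stretch was not silent in Granny Smith as a whole. Other genes of the stretch went the opposite way at levels too low for the test. MD02G1051800 had 0.107, 0.205 and 0.253 FPKM in the Granny Smith libraries and MD02G1052200 had 0.0640, 0.0612 and 0.0905, both with 0 in all Jonagold libraries. MD02G1052300 and MD02G1052400 had means of 0.130 and 0.0697 FPKM in Granny Smith and of 0.0248 and 0.0356 in Jonagold. On either side the stretch was bordered by genes called higher in Jonagold. One was MD02G1050800, described above, and the other MD02G1053300, at 0.694, 0.332 and 0.409 FPKM in the Granny Smith libraries and 65.2, 59.6 and 72.8 in the Jonagold ones (log2 fold change 5.50, adjusted p = 1.5e-07 by limma).

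**Figure D5:**
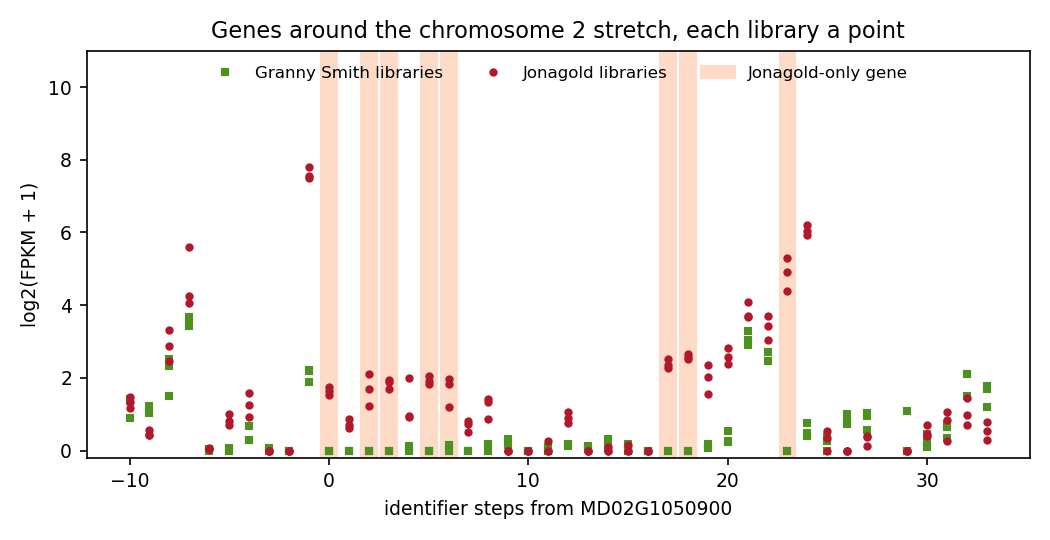
Expression as log2(FPKM + 1) (y axis) of the genes around the chromosome 2 stretch by identifier steps from MD02G1050900 (x axis), with a point for each Granny Smith (green squares) and Jonagold library (red circles) and shaded bands at the 8 Jonagold-only genes. MD02G1050800 at step -1 and MD02G1053300 at step 24 border the stretch, with 196.7 and 65.9 FPKM in Jonagold, and MD02G1053000 at step 21 is expressed in both cultivars.

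Another such stretch was on chromosome 5, from MD05G1136200 to MD05G1137700, also chosen after its values were seen. It held 6 Jonagold-only genes among 15, with means of 1.90 to 5.44 FPKM in Jonagold. The highest was MD05G1136600 with 3.75, 5.01 and 7.57 FPKM. All 5 non-member genes that could be tested there were called higher in Jonagold. The largest change was that of MD05G1137400, with 0, 0.220 and 0 FPKM in the Granny Smith and 13.4, 13.7 and 16.6 in the Jonagold libraries (log2 fold change 3.86, adjusted p = 1.1e-06 by limma), and whose Granny Smith mean of 0.0732 FPKM kept it outside the rule. The smallest was that of MD05G1137200, from 0.573 ± 0.253 to 2.50 ± 1.03 FPKM (1.12, adjusted p = 0.0059). The other 4 non-member genes were too low for the test and had 0 to 0.0952 FPKM in the Granny Smith libraries. The gene of this stretch with the highest level in Granny Smith was MD05G1136400, also called higher in Jonagold, with 4.97, 1.82 and 3.59 FPKM against 12.03, 10.8 and 13.0 in Jonagold.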

How the data were processed

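RNA-seq was done on pulp of Granny Smith and Jonagold apples (3 libraries each, grouped by title). The authors mapped clean reads to the GDDH13 genome, quantified genes with Cufflinks 2.2.1 and deposited FPKM values. The submitters' processing notes name Bowtie 0.12.2 and mouse genome builds, which cannot apply to these identifiers, and labels and paper name different RNA and library kits. Whole reads and gene lengths were recovered from the FPKM values with a relative tolerance of 4e-08 for 34279 of 34279 genes above 0. On simulated data 96.8% of 5831 genes were recovered exactly and 100.0% apart from a common divisor, so a few lengths may be too low. Reads carry no molecular identifiers, and floors of 3 reads cover counting error only.

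Differences between cultivars were fitted with limma 3.58.1 (R 4.3.3; lmFit, eBayes with trend) on log2(FPKM + 1), without further scaling, over genes averaging at least 1 FPKM, with Benjamini-Hochberg adjustment over all of them. A call needed an adjusted p-value below 0.05 and a fold change of at least 2. A count test was not used on FPKM. In simulated data limma called 93% of 200 changed genes among 20783 and 0 unchanged ones. There every gene had the same spread beyond counting, changed genes exceeded the fold required, and FPKM totals did not differ by cultivar. The simulation therefore does not measure false calls in the real data. The p-values measure the spread between pools of fruits. Counts were made in Python 3.11.15 with pandas 2.3.3. Members and lists were chosen with earlier results of these data known. Named were the 10 highest members, the 3 largest runs, the 3 most and 3 least variable members of at least 5 FPKM, the 3 genes on each side of each threshold, and the 3 highest and 3 lowest called genes within 5 steps; genes of the pathway tables and of the stretches on chromosomes 2, 5 and 17 were added after their values were seen. Alternatives were other thresholds, scalings, pseudocounts, filters and flank widths, a replicate block and each library left out. No sequences were used, since the RefSeq table at hand matched 0 of the identifiers.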

Additional observations from a re-analysis of the deposited data

How the results depend on the processing

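The number of Jonagold-only genes depended on where the limits were set. It was 506 with a Jonagold minimum of 0.5 FPKM, 184 with 2 FPKM and 186 with 0 reads required in every Granny Smith library, and the genes with a direct neighbour of their kind were then 123, 36 and 28. With a Granny Smith limit of 0.1 FPKM there were 419. Equal FPKM totals left 275 of the 332 genes, and FPKM computed from the recovered reads and totals, an alternative chosen after seeing the data, left 283 against 169 Granny Smith-only genes. Leaving out 1 library at a time, the rule found 315 to 377 genes, with 63 to 80 in runs. Without Granny Smith replicate 1, 35 of the 332 genes were lost and 324 found. Counts per chromosome moved by over 1.5 times for 15 of the 18 places (17 chromosomes and unplaced) with 2 FPKM, for 14 with 0 reads required, for 7 with 0.5 FPKM, for 2 with the limit of 0.1 FPKM and for 1, chromosome 6, with equal totals (12 to 7).

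Genes called lower in Jonagold by limma rose from 1960 to 3426 with equal FPKM totals, and those near Jonagold-only genes from 83 to 158, because this scaling moved the median log2 fold change of all genes by -0.35; calls higher were then 1772 of all genes and 147 near Jonagold-only genes, 34.1% of all calls against 56.2%. A flank of 1 step held 77 genes called higher and 14 lower, and one of 10 steps 330 and 179. With each library left out, genes within 5 steps called higher numbered 177 to 202 and called lower 76 to 87, and over all genes 2404 to 2632 and 1835 to 2098. The deviations of same-numbered libraries had correlations of 0.16, 0.28 and -0.03, and those of differently numbered libraries ran from -0.25 to 0.106. These values do not settle whether the replicate numbers pair the libraries. A replicate block gave 197 and 83 calls near Jonagold-only genes, and 2534 and 1967 over all genes. The other alternatives kept these counts within 1.5 times. The depth of 14925751 to 17884310 reads per library limits the weak and short genes most.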
